A study of Mus musculus with 4 samples.

Results

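The pathway of MHC class II antigen presentation is described here through 10 genes: H2-Ab1, H2-Eb1 and H2-Aa, which encode chains of the class II molecules themselves, the regulator Ciita, the invariant chain gene Cd74, the exchange factor genes H2-DMa, H2-DMb1 and H2-DMb2, the protease gene Ctss and Ifi30, which encodes GILT. All were looked up by symbol among 14435 genes of the expression table. 9 of the 10 have a row, 6 passed the filter on low counts and were tested, and 3 (Ciita, H2-Ab1 and H2-Eb1) lay below it. H2-Aa has no row in the table used here, so its expression was not analysed.

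MHC class II molecules carry peptides from endosomes to the cell surface, where CD4 T cells read them. The class II alpha and beta chains are assembled with the invariant chain CD74, which fills the peptide groove and directs the complex to endosomes. Cathepsin S cuts the invariant chain down there, the reductase GILT opens disulfide bonds of the antigens, and H2-DM exchanges the remaining fragment for a peptide. The coactivator CIITA switches most of these genes on together, and in macrophages its own expression is induced by interferon gamma.

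RNA was sequenced from RAW264.7, an established mouse macrophage cell line, after 12 hours with LPS from E. coli, a cell wall component that activates TLR4. 2 libraries were from cells transfected with an shRNA to Mettl3, the enzyme that places m6A on messenger RNA, and 2 from cells with a nonspecific shRNA, called control below. Every library had LPS and no other agent is named, so neither the response to LPS nor one to interferon gamma was measured. The sources used here give neither the shRNA sequences nor whether the libraries of a group are separate cultures. The p-values therefore rest on the spread between these 4 libraries, which may be technical, and loss of Mettl3 cannot be told apart from other effects of that shRNA.

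Totals of estimated counts were 16342313 and 16767622 in the shMettl3 libraries and 17142599 and 17193639 in the controls. Mettl3 had 11.5 and 11.2 CPM (counts per 1e6 counts, with library sizes scaled by TMM factors) in shMettl3 cells, against 30.9 and 29.9 CPM in controls (log2 fold change -1.42, SE 0.10, edgeR adjusted p = 1.58e-06). One label field of shMettl3 replicate 2 names METTL4. Mettl4 stood at 24.4 and 24.8 CPM in shMettl3 libraries, against 26.4 and 24.3 CPM in controls. Of 11035 genes tested with edgeR's quasi-likelihood test, 43.7% passed an adjusted p of 0.05, 22.3% lower and 21.4% higher in shMettl3 cells. With TMM scaling 48.9% of these calls were rises, against 64.1% with library totals as the scaling, under which the median log2 fold change over all genes was 0.11 and not 0.01. The shMettl3 libraries differed less from each other, at a chi-square per degree of freedom of 4.15, than the controls did, at 11.5.

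The pathway was expressed in part. The invariant chain and endosomal enzymes of class II processing were among the more abundant messages, whereas the 2 class II chains with a row, and the regulator, were at or near 0. In TPM, which corrects for gene length, Cd74 stood at 509 and 585 in shMettl3 libraries and at 1104 and 1075 in controls. By TPM it ranked 288th and 248th of 14435 genes in shMettl3 cells, and 154th and 164th in control cells. Ctss had 734 and 657 TPM in shMettl3 cells, against 1290.2 and 1112 TPM in control cells. For Ifi30, the thiol reductase gene, the levels were 329 and 351 TPM in shMettl3 cells and 409 and 371 TPM in control cells.

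The exchange factor genes came next in the order. H2-DMa, the alpha chain of H2-DM, was at 5.86 and 6.82 TPM in shMettl3 cells and at 9.51 and 8.28 TPM in controls. The beta chain gene H2-DMb1 had 0.97 and 0.85 TPM in shMettl3 cells, against 1.08 and 1.80 TPM in controls. Its neighbour H2-DMb2 was at 0.58 and 0.76 TPM in shMettl3 cells and at 3.04 and 1.88 TPM in controls. The level of H2-DMa was 3.78 and 4.24 times the summed TPM of both beta chain genes in shMettl3 cells, against 2.31 and 2.25 times in controls.

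H2-Ab1, the beta chain of the class II molecule I-A, had 5 and 3 counts in shMettl3 libraries and 3 and 6 in controls, or 0.47 and 0.28 TPM against 0.27 and 0.52 TPM. H2-Eb1, the beta chain of I-E, had 3 and 1 counts in shMettl3 libraries, against 1 and 0 in controls. Ciita had a single count, in shMettl3 replicate 1, and 0 in the other libraries. A count of 0 allows a level of up to 3 counts, between 0.172 and 0.181 CPM in these libraries. These genes overlap between groups or sit within a few reads of 0, and no fold change is given for them. The TPM of Cd74 was 1082 and 2089 times that of H2-Ab1 in shMettl3 cells, and 4090.5 and 2068 times in controls, ratios whose spread comes with single-digit counts of H2-Ab1.

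The order by mean TPM was Ctss, Cd74, Ifi30, H2-DMa, then the remaining genes. Between neighbours, Ctss and Cd74 differed by little in control replicate 2 (1112 and 1075 TPM), while both were above Ifi30 in every library. In TPM, H2-DMb1 was below H2-DMb2 in both control libraries and above it in both shMettl3 libraries. In control replicate 2 the 2 genes were nearly equal (1.80 and 1.88 TPM). Their estimated counts there had the reverse order, 22.8 for H2-DMb1 and 13.2 for H2-DMb2. The order of this pair is therefore uncertain.

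**Figure D1:**
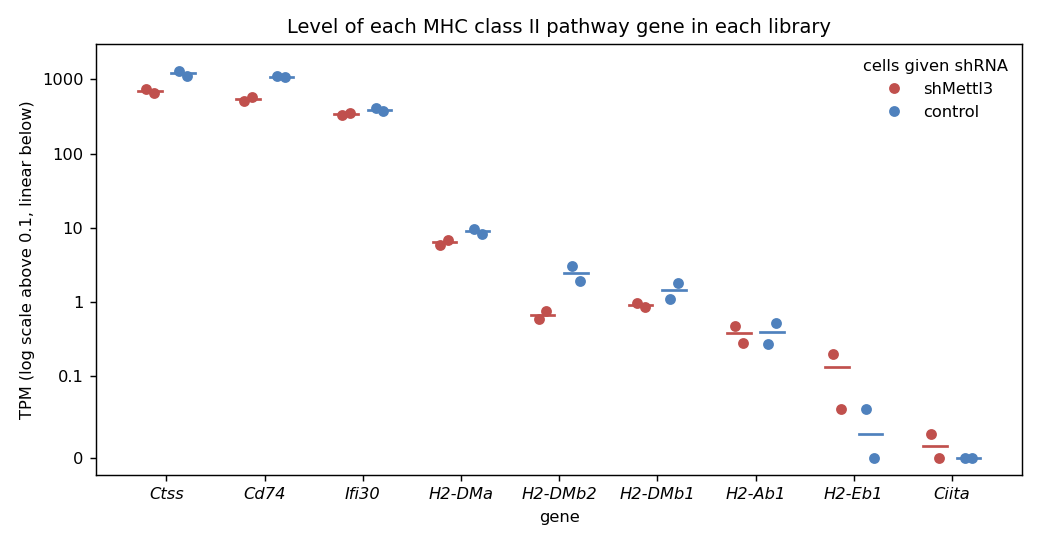
TPM of 9 class II pathway genes (vertical axis, logarithmic above 0.1 and linear below) in the 2 shMettl3 libraries (red, left) and 2 control libraries (blue, right), with the group mean as a line. Ctss, Cd74 and Ifi30 lie between 329 and 1290.2 TPM, while H2-Ab1, H2-Eb1 and Ciita lie at or below 0.52 TPM.

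Of the 6 members tested, 5 fell in shMettl3 cells and 0 rose, where 22.3% of all tested genes fell. The 10 genes were chosen with earlier results of these data known, so the counts here describe the list and do not test it. All 6 had lower CPM in both shMettl3 libraries than in either control, which held for 36.3% of tested genes. The median log2 fold change of these 6 was -0.87, against 0.01 over all tested genes. This median describes the members above the filter, not all 10. H2-DMb2 passed the filter through the control libraries alone, with estimated counts of 3.82 and 5 in shMettl3 libraries against 20.8 and 13.2 in controls. Its lower level was thus partly a condition of its being tested. It also shares reads with H2-DMb1, so the pair is not 2 separate observations. Only 3 fell without control replicate 1, 2 without shMettl3 replicate 1 and 3 in DESeq2, Cd74 and Ctss among them each time. Fewer cells that express a gene and less RNA per cell cannot be told apart in these bulk samples.

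The largest falls in read number were in the invariant chain and its protease. Cd74 had 332 and 378 CPM in shMettl3 libraries, against 783 and 788 CPM in controls. Its control libraries were nearly equal and its 2 shMettl3 libraries stood far below them. The log2 fold change was -1.14 (SE 0.08, edgeR adjusted p = 1.20e-06), which is 54.8% lower. Ctss had 525 and 465 CPM in shMettl3 cells and 996 and 882 CPM in controls, so the groups were separated by more than the gap within either. Its log2 fold change was -0.92 (SE 0.09, edgeR adjusted p = 1.33e-05). Both genes stayed called in every alternative fit, including a test against a 1.5-fold change. The ratio of Cd74 to Ctss in TPM was 0.693 and 0.890 in shMettl3 libraries and 0.856 and 0.967 in controls, so the ranges of this ratio overlap.

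The falls of Ifi30 and H2-DMa were smaller. Ifi30 had 166 and 174 CPM in shMettl3 cells, against 220 and 206 CPM in controls, a log2 fold change of -0.33 (SE 0.07, edgeR adjusted p = 0.00399). The groups did not overlap, but the call was lost without shMettl3 replicate 1 (-0.29, edgeR adjusted p = 0.0904) and with TPM in limma (-0.20, adjusted p = 0.0643). H2-DMa had 6.60 and 8.05 CPM in shMettl3 cells and 11.0 and 9.28 CPM in controls. The higher shMettl3 library and the lower control library lay close together. Its log2 fold change was -0.47 (SE 0.15, edgeR adjusted p = 0.0295). That call was lost in edgeR without control replicate 1 (-0.35, adjusted p = 0.102), without shMettl3 replicate 1 (-0.33, adjusted p = 0.232) and with library totals as scaling (-0.37, adjusted p = 0.0677), and also after removal of the GC trend (adjusted p = 0.0534) and in DESeq2 (adjusted p = 0.131).

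H2-DMb1 and H2-DMb2 encode closely related beta chains of H2-DM, and mice carry both. H2-DMb2 had estimated counts of 3.82 and 5 in shMettl3 libraries, against 20.8 and 13.2 in controls. H2-DMb1 had 11.2 and 10 in shMettl3 libraries, against 13.2 and 22.8 in controls. The fractions arise where reads are divided between genes, and the 2 counts add up to whole numbers. Together they made 15 and 15 in shMettl3 libraries and 34 and 36 in controls. The share given to H2-DMb2 was 25.5% and 33.3% in shMettl3 libraries, against 61.2% and 36.7% in controls. The 2 control libraries thus differ more in how the counts were divided than in their sum. In the GENCODE transcripts 27.2% of the 50-base windows of H2-DMb1 (369 of 1355) occur in H2-DMb2 without a mismatch, and 50 bases is the read length. The longest coding transcripts of the pair aligned with 87.7% identity over 1144 columns.

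Tested one by one, H2-DMb2 fell (log2 fold change -1.93, SE 0.48, edgeR adjusted p = 0.00765) and H2-DMb1 was not called (-0.81, SE 0.41, edgeR adjusted p = 0.133). The log2 fold change of H2-DMb1 was -1.18 without control replicate 1, -0.35 without control replicate 2, -0.91 without shMettl3 replicate 1 and -0.72 without shMettl3 replicate 2. None of these 4 fits called it. The call on H2-DMb2 was lost in edgeR without control replicate 1 (-1.56, adjusted p = 0.0663) and without shMettl3 replicate 1 (-1.80, adjusted p = 0.0734), and in DESeq2 (-1.97, adjusted p = 0.0767). Summed to 1 feature, the pair fell by 1.26 on the log2 scale (SE 0.30, edgeR adjusted p = 0.00546). The difference between the 2 genes was not tested, and with these shared reads their values are uncertain one by one.

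**Figure D2:**
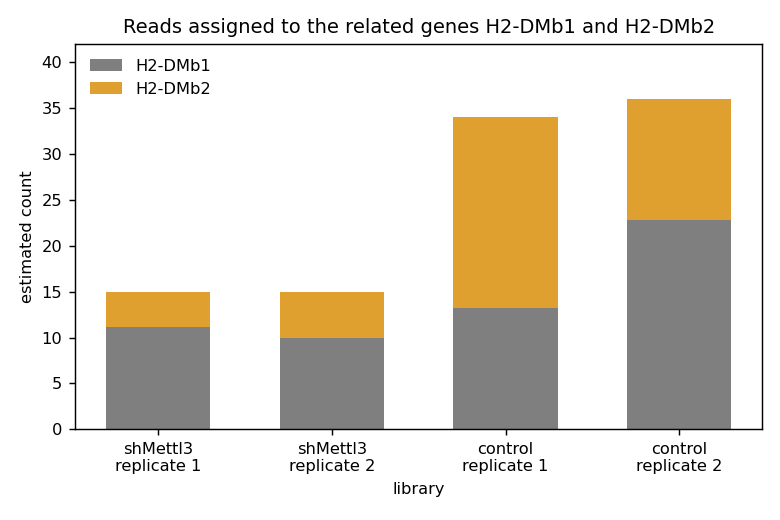
Estimated counts (vertical axis, from 0) assigned to H2-DMb1 (grey) and H2-DMb2 (orange) in each library, stacked. The stacks reach 15 in both shMettl3 libraries, and 34 and 36 in the controls, while the division between the genes differs between the 2 control libraries.

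Promoter sequences show what some of the class II genes share upstream, whether or not they are expressed here. Class II promoters are known for an X box, bound by RFX and CREB, followed by a Y box, bound by NF-Y, and CIITA docks on the proteins there. Windows from 250 bases before to 50 after the gene start were taken from RefSeq (GRCm38.p6) and matched 7 of the 10 members. No window was available for Cd74, Ciita and H2-Ab1, so these genes were not searched. A core of the X box, CTNNNAAC, and the Y box ATTGG were searched on both strands, the Y box starting 20 to 40 bases after the X core on the same strand. The letters of the core were chosen with these windows in view. H2-DMb1, H2-DMb2, H2-Aa and H2-Eb1 hold this arrangement, as the choice of letters allowed. It occurs in 0.922% of all 32544 promoter windows, a share that describes the pattern and does not test these genes. Among other class II genes of the same region, H2-Ob holds it as well, while H2-Oa and H2-Eb2 do not. The shares of windows with each element alone were 41% and 37.4%. The windows below show the arrangement, with the X core and the Y box in capitals, which do not overlap. The part of the X box known to bind CREB lies after the X core and is not marked in these windows.
H2-DMb1 (chr17:34153084-34153144, + strand): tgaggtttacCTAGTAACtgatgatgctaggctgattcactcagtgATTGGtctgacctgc
H2-DMb2 (chr17:34145113-34145173, + strand): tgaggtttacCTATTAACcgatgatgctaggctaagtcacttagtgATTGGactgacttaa
H2-Eb1 (chr17:34305763-34305822, + strand): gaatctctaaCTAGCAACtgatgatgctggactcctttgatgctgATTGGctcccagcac
H2-Aa (chr17:34287857-34287917, - strand): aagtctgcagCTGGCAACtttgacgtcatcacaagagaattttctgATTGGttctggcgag

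The Y box starts 36 bases after the X core in H2-DMb1, H2-DMb2 and H2-Aa and 35 bases after it in H2-Eb1. So H2-Eb1, at 3 counts or fewer in every library, and the H2-DMb genes, with 3.82 to 22.8 estimated counts, share the same arrangement. The windows of H2-DMa, Ifi30 and Ctss do not hold it in these letters. The Ctss window holds GAAA, then 2 bases of any kind, then GAAA again, a form of the interferon-response element that IRF proteins bind, starting 21 bases before the gene start. It was found in 3.45% of all windows and is shown in capitals, as Ctss is the most abundant member. A match is a description of letters and not a measured site.
Ctss (chr3:95526755-95526784, + strand): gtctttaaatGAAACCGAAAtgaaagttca

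No gene for the proteins that bind these promoters was called lower. Of 10 factors of class II promoters 3 rose and 0 fell (1 fell without control replicate 2), where 21.4% of all tested genes rose and 22.3% fell, and their median log2 fold change was 0.02. The RFX subunit genes Rfx5 (-0.01, SE 0.12), Rfxap (-0.05, SE 0.12) and Rfxank (-0.05, SE 0.13) were not called. Nor were the NF-Y subunit genes Nfya (-0.13, SE 0.07), Nfyb (0.00, SE 0.13) and Nfyc (0.04, SE 0.07). Kat2b, an acetyltransferase that works with CIITA, rose with 26.8 and 26.1 CPM in shMettl3 libraries, against 20.8 and 16.9 CPM in controls (0.49, edgeR adjusted p = 0.00491). The CREB gene Creb1 (0.44, edgeR adjusted p = 0.00209) and the coactivator gene Crebbp (0.37, edgeR adjusted p = 0.00298) rose as well.

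Upstream of Ciita, 2 of 12 tested genes rose and 2 fell, with a median of -0.14, no larger a share than the 21.4% and 22.3% of all tested genes. Usf1, a factor of an interferon-responsive Ciita promoter, rose to 45.3 and 48.2 CPM in shMettl3 libraries, against 26.7 and 27.6 CPM in controls (0.78, SE 0.08, edgeR adjusted p = 2.61e-05). Irf1, which acts on the same promoter, rose with 32.4 and 26.7 CPM in shMettl3 cells, against 22.3 and 19.1 CPM in controls. Its log2 fold change was 0.51 (edgeR adjusted p = 0.00597), and 0.37 without shMettl3 replicate 1 (edgeR adjusted p = 0.0664). The interferon gamma receptor genes Ifngr1 (-0.33, edgeR adjusted p = 0.0205) and Ifngr2 (-0.29, edgeR adjusted p = 0.0112) fell. Both calls were lost without shMettl3 replicate 1, at -0.39 for Ifngr1 and -0.33 for Ifngr2 (edgeR adjusted p = 0.0546 for each). They were also lost without shMettl3 replicate 2, at -0.28 for Ifngr1 (edgeR adjusted p = 0.160) and -0.24 for Ifngr2 (edgeR adjusted p = 0.155). Ifngr1 also lost its call without control replicate 1 (-0.27, edgeR adjusted p = 0.0516). With library totals as scaling 2 genes of the list rose and 0 fell, with Ifngr1 at -0.24 (edgeR adjusted p = 0.0760) and Ifngr2 at -0.19 (edgeR adjusted p = 0.0616). With 1 library left out, 3 rose and 1 fell without control replicate 1, and 3 rose and 4 fell without control replicate 2. Without shMettl3 replicate 1 it was 1 that rose and 2 that fell, neither of them a receptor gene, and without shMettl3 replicate 2 it was 2 and 0.

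Of 16 tested endosomal proteases and cystatins 10 fell and 1 rose, with a median of -0.39, where 22.3% of all tested genes fell and 21.4% rose. The 10 were 9 of 13 proteases and the cystatin gene Cst3, while Ctse, Ctsf, Ctsh and Ctso were not called. Ctsk, cathepsin K, had 23.7 and 24.7 CPM in shMettl3 cells, against 71.9 and 70.7 CPM in controls (-1.56, SE 0.08, edgeR adjusted p = 1.19e-07). Napsa, an aspartic protease, had a log2 fold change of -0.97 (edgeR adjusted p = 3.08e-06) and Ctsc, which activates serine proteases of granules, one of -0.72 (edgeR adjusted p = 2.61e-05). Lgmn, the asparagine endopeptidase that makes early cuts in antigens and the invariant chain, had one of -0.71 (edgeR adjusted p = 4.15e-05). The gene that rose was Cst7, cystatin F, an inhibitor of endosomal cysteine proteases. It had 8.69 and 6.72 CPM in shMettl3 cells, against 1.38 and 1.39 CPM in controls (2.47, SE 0.23, edgeR adjusted p = 1.11e-05), and it lay below the filter at a mean CPM of at least 5. Cst6 had 1 count in all. In the test against a 1.5-fold change 2 genes of this list fell, and with limma on TPM 8 fell. The number that fell was between 9 and 10 when any 1 library was left out.

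Genes that process CD74 or remove class II from the surface went different ways. The proteases SPPL2A and SPPL2B cut within membranes, and SPPL2A is known to clear the last CD74 fragment. Sppl2a was not called, at -0.21 on the log2 scale (SE 0.10). Sppl2b fell (-0.31, SE 0.10, edgeR adjusted p = 0.0221), a call lost without shMettl3 replicate 1 (-0.22, edgeR adjusted p = 0.241) with library totals as scaling (-0.21, edgeR adjusted p = 0.0917), with the GC trend removed (-0.13, adjusted p = 0.292) and in DESeq2 (-0.31, adjusted p = 0.0951). March8, a ubiquitin ligase that sends surface proteins to lysosomes, rose with 96.9 and 97.9 CPM in shMettl3 cells, against 65.5 and 72.1 CPM in controls (0.50, SE 0.07, edgeR adjusted p = 2.92e-04). March1, the related ligase known for class II in dendritic cells, had 3 and 0 counts in shMettl3 libraries and 0 and 5 in controls.

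CD74 is also a surface receptor for the cytokine MIF. Among its ligands and co-receptors 2 of 4 tested genes fell and 0 rose, with a median of -0.13, where 22.3% of all tested genes fell. Mif had 728 and 711 CPM in shMettl3 cells, against 653 and 710 CPM in controls (0.08, SE 0.07), and was not called. Ddt, which encodes a relative of MIF, fell (-0.49, SE 0.11, edgeR adjusted p = 0.00415). Cd44, the signalling partner of CD74, fell with 1234 and 1108 CPM in shMettl3 cells, against 1578 and 1395 CPM in controls (-0.34, SE 0.08, edgeR adjusted p = 0.00596). That call was lost without shMettl3 replicate 2 (-0.27, edgeR adjusted p = 0.0817) and with TPM in limma (-0.20, adjusted p = 0.123). Cxcr2 and Cxcr4 had 12 counts or fewer in every library, and Ackr3 has no row.

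**Figure D3:**
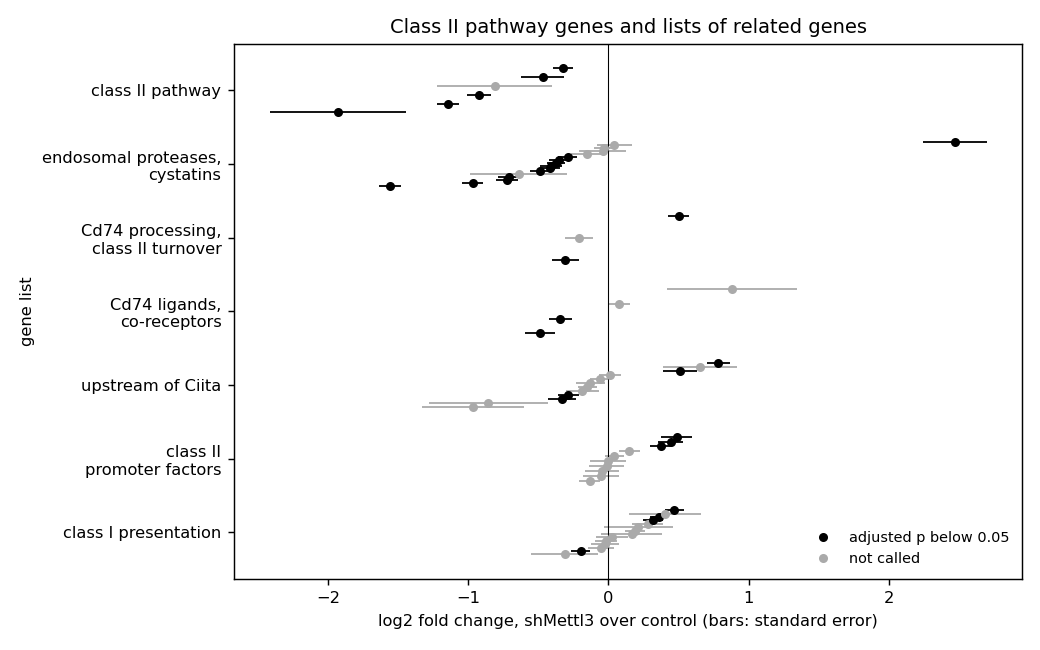
Log2 fold change, shMettl3 over control (horizontal axis), of each tested gene in the class II pathway and in 6 lists of related genes (rows), with standard errors as bars. Black points passed an adjusted p of 0.05. The class II pathway lies wholly below 0, 10 proteases and cystatins were called below 0 and Cst7 stands alone at 2.47.

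The class II genes share a chromosomal region with genes of class I presentation, which loads peptides from the cytosol. In RefSeq order the region from H2-Oa to H2-Eb2 holds 14 protein-coding genes. 8 of these were tested, 2 fell (H2-DMa and H2-DMb2) and 0 rose, 4 lay below the filter and 2 have no row. That share of falls is close to the 22.3% of all tested genes. It counts H2-DMb2, which passed the filter through the control libraries alone and shares reads with H2-DMb1. Between H2-DMb1 and H2-Ob lie Psmb9 and Psmb8, subunits of the immunoproteasome, and Tap1 and Tap2, the peptide transporter. Their log2 fold changes were -0.31 (SE 0.24), 0.28 (SE 0.11), 0.17 (SE 0.22) and -0.02 (SE 0.10), and none was called. H2-Oa and H2-Ob encode H2-DO, a partner of H2-DM that restrains it. H2-Oa had 7 and 5 counts in shMettl3 libraries and 2 and 4 in controls, and H2-Ob had 12 and 2 against 1 and 4 in controls.

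Across the list of class I presentation 3 of 14 genes rose and 1 fell, with a median of 0.18. This share of rises equals the 21.4% over all tested genes. The 3 that rose were the chaperone genes Canx (0.47, edgeR adjusted p = 2.99e-04), Calr (0.36, edgeR adjusted p = 0.0012) and Pdia3 (0.32, edgeR adjusted p = 0.00446), which also fold many other proteins. Pdia3 lost its call without shMettl3 replicate 2 (edgeR adjusted p = 0.0536). The heavy chain gene H2-D1 fell by 0.20 on the log2 scale (edgeR adjusted p = 0.032), a call that ended with library totals as scaling (edgeR adjusted p = 0.230) and without either shMettl3 library (edgeR adjusted p = 0.185 without replicate 1 and 0.244 without replicate 2). Nlrc5, which does for class I genes what CIITA does for class II, had 96.7 and 78.5 CPM in shMettl3 cells, against 78.9 and 53.4 CPM in controls, and was not called. Without control replicate 1, and also with the replicate number as a block, the number of class I genes that rose was 7. The difference between the 2 pathways was not tested.

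**Figure D4:**
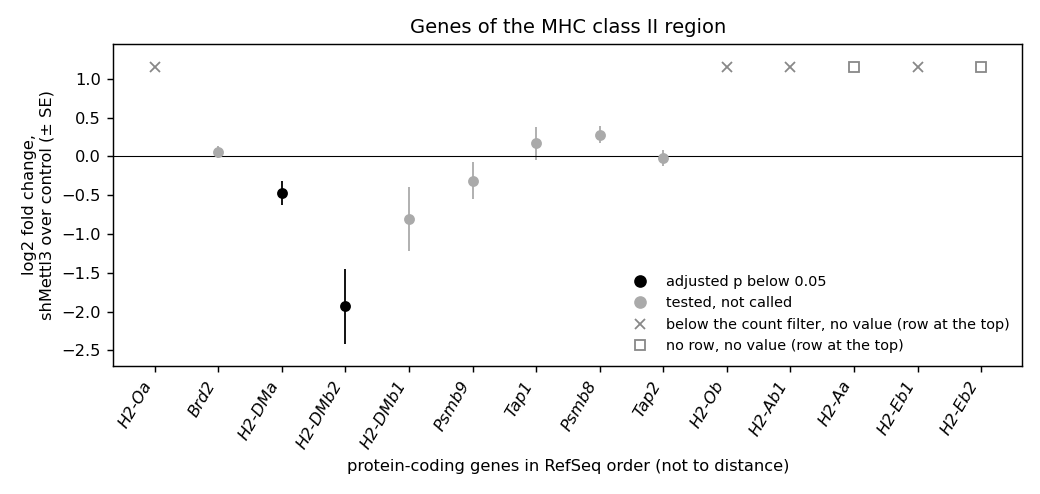
Log2 fold change, shMettl3 over control, with standard errors (vertical axis) for the 14 protein-coding genes of the class II region in RefSeq order (horizontal axis, not to distance). Black points passed an adjusted p of 0.05, and crosses and squares at the top mark genes with no value. H2-DMa and H2-DMb2 were called, at -0.47 and -1.93, and Psmb9, Tap1, Psmb8 and Tap2 lie between -0.31 and 0.28.

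Markers of macrophages moved in the same direction as the pathway. Of 12 macrophage markers 11 were tested, 9 fell and 0 rose, where 22.3% of all tested genes fell, and the median was -0.87. Their summed level was 8792 and 8752 CPM in shMettl3 libraries, against 13662 and 14009 CPM in controls. Most of this sum was Lyz2 (mean of 3205 CPM in shMettl3 libraries and 5868 CPM in controls) and Cd14 (2875 and 4015 CPM). Adgre1 (F4/80) had 71.5 and 70.5 CPM in shMettl3 libraries, against 233 and 259 CPM in controls, Spi1 (-0.06, SE 0.07) and Fcgr1 (0.83, SE 0.31) were not called, and Mertk had 1 count in all. Of 9 markers of dendritic cells, which present antigen on class II, 5 have a row, and their sum was 7.67 and 6.67 CPM in shMettl3 libraries and 24.7 and 32.3 CPM in controls. Most of that was Itgax, also an integrin of macrophages, which fell (-2.36, SE 0.18, edgeR adjusted p = 1.19e-05). Zbtb46, which marks the dendritic lineage, had 2 and 2 counts in shMettl3 libraries, against 9 and 8 in controls, while Flt3, Batf3, Siglech and Ccr7 have no row. The 7 B cell markers summed to 1.07 and 0.805 CPM in shMettl3 libraries, against 1.56 and 0.964 CPM in controls, and Ms4a1 and Cd79b have no row. The 6 T cell markers came to 7.26 and 5.23 CPM in shMettl3 libraries and 6.56 and 6.03 CPM in controls, nearly all of it Lck. Fibroblast markers summed to 2.14 and 0.345 CPM in shMettl3 libraries, against 0 and 0.0603 CPM in controls. The part of these markers in the fall of the class II genes was not tested.

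Over the 4 libraries, the genes with a mean of at least 10 CPM whose log2 CPM deviations were closest to those of Cd74 were Itgb2, Rnf183 and Fam102a, at Euclidean distances of 0.03, 0.06 and 0.06. Itgb2, the beta chain of leukocyte integrins, had 334 and 380 CPM in shMettl3 cells, against 767 and 789 CPM in controls, close to the values of Cd74 itself. For Ctss they were Myc, BC028528 and Eng, at distances of 0.07, 0.08 and 0.08. Such likeness over 4 libraries in 2 groups rests mainly on the size of the group difference.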

How the data were processed

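The submitters' processing notes name RSEM 1.2.12, Bowtie2 2.2.5 and HISAT2 2.0.4 beside the build mm9, without saying what each did. What annotation, filter and strand setting the authors applied is not given in the sources used here. Per the labels' protocols, cDNA was made from poly(A) tails by template switching and read as single ends of 50 bases. Such libraries carry no strand, and no molecular identifiers are named, so limits from counts cover counting error only. The authors deposited estimated counts without normalization, which are not whole for 1808 of 14435 genes. The deposited TPM and FPKM values are scaled to length and library by the authors. The table has 0 columns of other samples.

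Counts were rounded and fitted with edgeR 4.0.16 (R 4.3.3; TMM; robust quasi-likelihood; filterByExpr with a minimum count of 10 and total of 15), by group over all 4 libraries. Of all genes 11035 were tested and 3400 lay below the filter. The Benjamini-Hochberg adjustment ran over all tested genes, and an adjusted p below 0.05 was called. The script was tested on simulated data. A standard error is the absolute log2 fold change divided by the root of F. DESeq2 1.42.0, limma 3.58.1 and other settings were run as alternatives. For the GC alternative, 98.6% of tested genes had a value from GENCODE M21. 21 symbols turned into dates were restored by Entrez identifier. Promoter windows are on GRCm38.p6, a later build than mm9, and the table gives no coordinates. Groups and replicate numbers came from the sample titles.

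The 10 genes and all lists were chosen with earlier results of these data known. Named genes are the members, Mettl3, Mettl4, up to 4 called genes with the largest change in each direction of each list, the 3 genes nearest to Cd74 and to Ctss, and genes named for their position. Others (Rfx, Nfy, Nlrc5, Sppl2a, Mif and markers) were named after their values were seen. Some genes of the lists are not reported here by name.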

Additional observations from a re-analysis of the deposited data

How the results depend on the processing

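Cd74, Ctss and Mettl3 kept their direction and call in all alternatives. The 6 tested members had no reversal, where 90 member values kept their side of the threshold and 14 lost their call, those of H2-DMa, H2-DMb2 and Ifi30. Among named related genes 309 values kept their side of the threshold, 50 lost their call and 0 reversed. The number of members that fell (5 in the report) was 3 in DESeq2 and 2 in a test against a 1.5-fold change, and between 2 and 5 with 1 library left out (3 without control replicate 1, 2 without shMettl3 replicate 1). In the test against a 1.5-fold change 2 related genes fell and 2 rose, and 952 of all genes were called. Of 59 tested related genes 16 fell and 10 rose in the main fit, where 22.3% of all tested genes fell and 21.4% rose. With limma on TPM 9 fell and 16 rose at a pseudocount of 1, as at 0.1, and with FPKM 10 fell. Leaving out 1 library, where the lone library of a group is assumed to vary like the other group, gave 12 to 21 that fell, 9 to 16 that rose (16 without control replicate 1) and 3095 to 5324 calls among all genes, against 4826. With the replicate block 5 members fell, 18 related genes fell and 15 rose, 5116 genes were called, and the class I genes that rose were 7 and not 3. Same-numbered libraries deviated together with a correlation of 0.163 over genes, and the labels name no shared culture, batch or day, so the 2 pairs are not taken as paired samples. The share of calls that rose was 63.5% with FPKM and 70.1% with TPM at a pseudocount of 0.1. With no filter on low counts Ciita, H2-Ab1 and H2-Eb1 entered the fit and none was called. With a mean CPM of at least 5, the H2-DMb genes were not tested. The cause of the lost calls was not tested. Counts of a few reads limit what can be said of the class II chains and Ciita.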

Other observations

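The neighbours of the members on other chromosomes, taken from RefSeq order, were chosen by position alone. Called lower were 3 of 3 tested genes beside Ctss, 2 of 3 beside Cd74 and 1 of 4 beside Ifi30. Over all tested genes 22.3% fell. Whether these few genes differ from that share was not tested. Ctss lies beside Ctsk, Hormad1, Arnt and Golph3l. Of these Ctsk (-1.56, one of the proteases described above), Golph3l (-0.59, SE 0.09, edgeR adjusted p = 5.39e-04) and Arnt (-0.27, SE 0.09, edgeR adjusted p = 0.0235) were lower in shMettl3 cells, and Hormad1 has no row. Golph3l, a Golgi membrane protein gene, had 51.3 and 52.3 CPM in shMettl3 libraries, against 85.7 and 70.7 CPM in controls.

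Around Cd74, the heparan sulfate enzyme gene Ndst1 had 5.41 and 4.48 CPM in shMettl3 libraries, against 20.2 and 20.7 CPM in controls (-2.05, SE 0.13, edgeR adjusted p = 8.03e-07). Rps14, a ribosomal protein gene, was lower by less (-0.26, SE 0.07, edgeR adjusted p = 0.0106), and Tcof1 was not called (0.08, SE 0.07). Beside Ifi30, the kinase gene Mast3 was lower in shMettl3 cells (-0.49, SE 0.08, edgeR adjusted p = 4.98e-04), while Rab3a, Mpv17l2 and Pik3r2 were not called.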
